A study of Arabidopsis thaliana with 4 samples.

Results

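The mitochondria-encoded genes described here are the 31 genes of the deposited count table whose identifier places them on the mitochondrial genome of Arabidopsis thaliana, out of 27554 genes with an identifier. They comprise 7 genes of complex I, 1 of complex III, 3 of complex IV, 6 of the ATP synthase, 7 for ribosomal proteins, 5 for cytochrome c maturation, the maturase gene matR and the transporter gene mttB. Names are those of the deposited table, and the 2 genes it lists as atp6 are called atp6-1 (ATMG00410) and atp6-2 (ATMG01170). The table lists ribosome footprints, the stretches of mRNA covered by ribosomes and so spared by RNase, counted per gene in whole seedlings aged 6 days. Line 5, which overexpresses ClpD constitutively in the wild-type background, and the wild type (WT) had 2 libraries each. ClpD, encoded by the nuclear gene ERD1, is a Clp chaperone of chloroplasts. Per the design text the line was chosen because its seedlings accumulate the ClpD precursor. The promoter of the transgene is not given in the sources used here, and a single overexpression line was sequenced, so effects of ClpD overexpression and other differences of that line cannot be told apart.

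Plant mitochondria keep a small genome that is transcribed and translated inside the organelle. Its protein genes encode hydrophobic core subunits of the respiratory chain and the ATP synthase, some proteins of the mitochondrial ribosome, and parts of the machinery that attaches heme to cytochrome c. The other subunits of the same complexes are encoded in the nucleus, made in the cytosol and imported. Cycloheximide, which the lysis buffer contained, arrests cytosolic ribosomes and not those of mitochondria. A footprint count depends on how much mRNA is present and on how densely ribosomes occupy it; the RNA-seq of the study was not analysed here. In whole seedlings, fewer cells of a type and less RNA per cell cannot be told apart.

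Total counts per library ranged from 27260818 to 42291527. ERD1 had 3111 and 3301 CPM (the count relative to library size, scaled by edgeR's TMM method) in line 5, against 167 and 175 CPM in WT (log2 fold change 4.23 with SE 0.128, adjusted p = 0.00126 by edgeR). The green-tissue marker RBCS1A was abundant in all 4 libraries (12605 to 17475 CPM), the root markers SHR and SCR were present at 5.18 to 29.7 CPM, and the root marker PLT1 had 0 counts in each library. Of the 3 green, 4 root and 2 seed markers, LHCB2.1 (log2 fold change -1.17, adjusted p = 0.0211) and SCR (-0.92, adjusted p = 0.0249) were called lower in line 5 by edgeR and 0 higher, and the part of cell make-up in the results below was not tested. Whether both libraries of a genotype came from separately grown seedlings is not labelled, so the spread behind each p-value is that between these samples and may be technical. WT replicate 2 stood apart from WT replicate 1 on both organelle genomes: plastid-encoded genes took 0.503% and 0.597% of counts in line 5, against 1.25% in WT replicate 1 and 2.32% in WT replicate 2.

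Of the mitochondria-encoded genes, atp1 alone passed the test, with fewer footprints in line 5. The other 8 tested genes of complexes III and IV and the ATP synthase had lower levels in both line 5 libraries than in either WT library without passing it, and the gap depended on the WT library they were set against. Of the 31 genes, 27 passed the filter on low counts. Of these 27, 1 gene (atp1) passed the test at an adjusted p under 0.05 and was lower, where 8.72% of all 18737 genes tested were lower, and 0 genes were higher, where 6.72% of all genes were. At an unadjusted p under 0.05, 11 of the 27 were lower, against 18.7% of all genes tested, and 0 were higher, against 17.1%. DESeq2 called 7 lower, against 12.2% of all genes, and 0 higher, against 8.49%. Both line 5 libraries lay below both WT libraries for 14 of the 27, against 33.4% of all genes tested, and above them for 1, nad6, against 34.7%. The median log2 fold change was -0.40 over the 27 genes and 0.0023 over all genes tested.

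**Figure D1:**
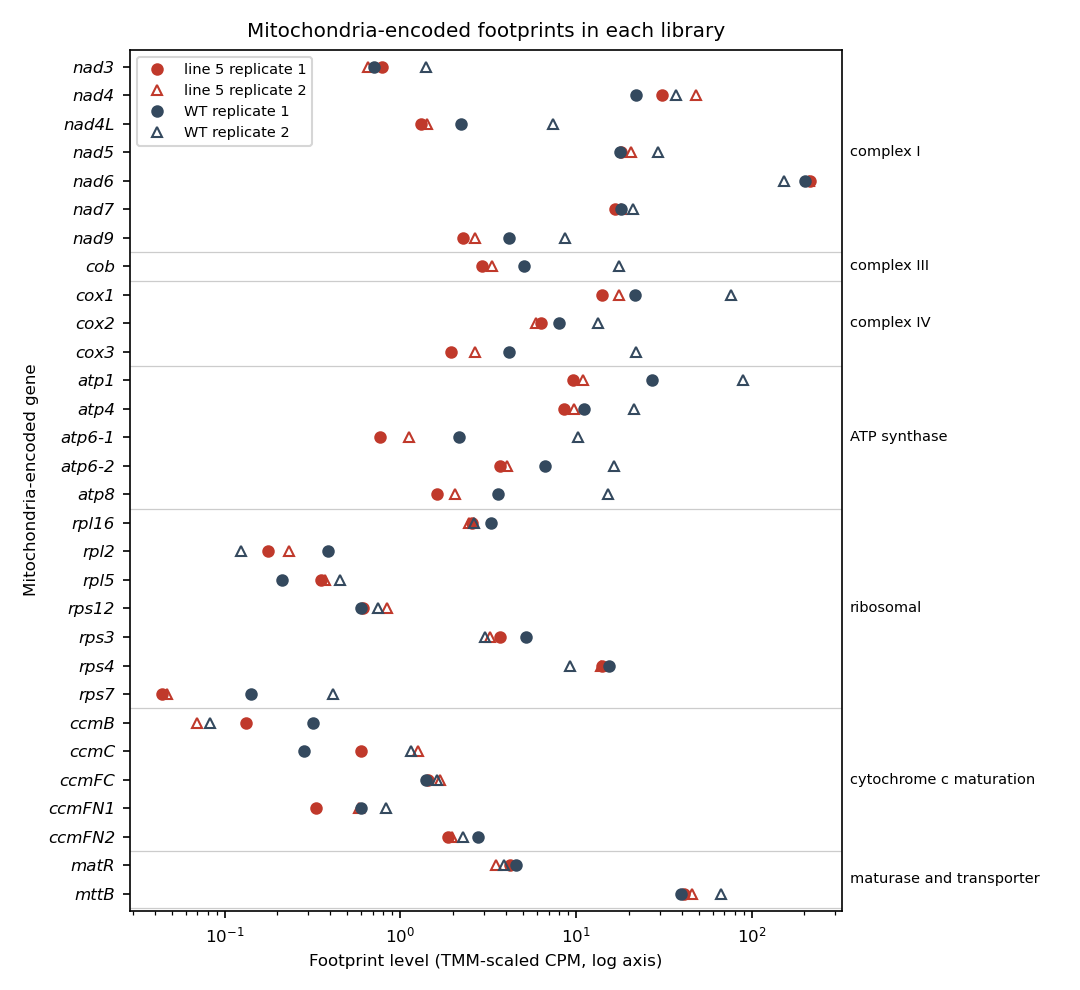
Footprint level of 30 mitochondria-encoded genes (rows, grouped by complex or function) as TMM-scaled CPM on a log axis, with 1 point per library; atp9, at 0 counts in every library, has no place on a log axis. For the genes of complexes III and IV and the ATP synthase both line 5 points lie left of both WT points, with WT replicate 2 farthest right. Among the ribosomal genes, points of rps3, rps4, rps12, rpl2 and rpl5 overlap between groups. For rpl16 and rps7 both line 5 points lie left of both WT points.

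The ATP synthase turns the proton gradient of the inner membrane into ATP, and the mitochondrial genome encodes subunits of both its catalytic head and its membrane part. The gene atp1 (ATMG01190), which encodes the alpha subunit of the head, had 9.68 and 10.9 CPM in line 5, against 27.3 and 89.7 CPM in WT. Both line 5 libraries were lower than either WT library, and the WT libraries differed 3.29-fold between themselves. It fell by 2.50 on the log2 scale (SE 0.570, edgeR, adjusted p = 0.0470). The call was lost with either line 5 library left out, at a log2 fold change of -2.42 (adjusted p = 0.205) without replicate 1 and -2.59 (adjusted p = 0.263) without replicate 2. Of all genes, 0.074% and 0.0159% were called lower in those 2 fits. The log2 fold change of atp1 was -3.13 without WT replicate 1 and -1.40 without WT replicate 2. The atp6 genes encode subunit a, through which protons pass. The level of atp6-2 was 3.67 and 4.04 CPM in line 5, against 6.66 and 16.5 CPM in WT (log2 fold change -1.58, SE 0.439, edgeR, adjusted p = 0.0695). For atp6-1 it was 0.770 and 1.12 CPM in line 5, against 2.15 and 10.3 CPM in WT (-2.70, SE 0.780, adjusted p = 0.0754). The 2 copies showed the same order of libraries, with WT replicate 2 highest in each. Whether reads were shared between the 2 copies was not tested.

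The small membrane subunit gene atp8 had 1.63 and 2.05 CPM in line 5, against 3.60 and 15.3 CPM in WT (log2 fold change -2.35, SE 0.697, edgeR, adjusted p = 0.0798). The stalk subunit gene atp4 had 8.58 and 9.69 CPM in line 5, against 11.1 and 21.4 CPM in WT (-0.83, SE 0.319, adjusted p = 0.135). For both, the line 5 libraries lay close together and under each WT library, and neither passed the test. The gene atp9, for the c subunit of the rotating ring, was listed at 0 counts in all 4 libraries. The limit that a count of 0 allows, 3 counts, would be 0.0660 and 0.0700 CPM in line 5 and 0.106 and 0.124 CPM in WT, and it bounds what was assigned to the atp9 row, not footprints on atp9. A nuclear gene annotated as ATP synthase subunit C, AT2G07671 on chromosome 2, had 1344 and 1585 counts in line 5, against 1076 and 1253 counts in WT (log2 fold change -0.43, SE 0.197, edgeR, adjusted p = 0.188). Whether reads of atp9 were assigned to that copy was not tested.

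Complex IV, cytochrome c oxidase, passes electrons to oxygen, and its 3 core subunits are encoded in the mitochondrion. The catalytic subunit gene cox1 had 14.1 and 17.6 CPM in line 5, against 21.8 and 76.7 CPM in WT (log2 fold change -1.64, SE 0.586, edgeR, adjusted p = 0.117). The gene cox3 had 1.94 and 2.66 CPM in line 5, against 4.16 and 21.9 CPM in WT (-2.50, SE 0.791, adjusted p = 0.0912). Of the tested mitochondria-encoded genes it had the widest gap between the WT libraries, 5.28-fold, while its line 5 libraries differed by less than the WT pair. The gene cox2, whose product receives electrons from cytochrome c, had 6.29 and 5.95 CPM in line 5, against 7.97 and 13.3 CPM in WT (-0.79, SE 0.266, adjusted p = 0.101). All 3 were lower in both line 5 libraries than in both WT libraries, and 0 of the 3 passed the test. The same held for the row of cob, the cytochrome b gene and the only mitochondria-encoded gene of complex III. It had 2.93 and 3.32 CPM in line 5, against 5.08 and 17.6 CPM in WT (-1.86, SE 0.588, adjusted p = 0.0914). With its copies on chromosome 2 added, described below, the groups of cob overlapped.

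Complex I, the NADH dehydrogenase, was divided. The gene nad9, for a subunit of the arm that faces the matrix, had 2.29 and 2.66 CPM in line 5, against 4.16 and 8.62 CPM in WT (log2 fold change -1.36, SE 0.377, edgeR, adjusted p = 0.0690). The small membrane subunit gene nad4L had 1.32 and 1.42 CPM in line 5, against 2.22 and 7.43 CPM in WT (-1.80, SE 0.585, adjusted p = 0.0961). These 2 were arranged like the genes of complexes III and IV and the ATP synthase, with both line 5 libraries lowest and WT replicate 2 highest. The other 5 were not. The membrane subunit gene nad6 (ATMG00270) was the most counted mitochondria-encoded gene, with 215 and 213 CPM in line 5, against 202 and 154 CPM in WT (0.26, SE 0.154, adjusted p = 0.274), and here WT replicate 2 was the lowest library.

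The proton-pumping membrane subunit gene nad4 had 31.0 and 48.5 CPM in line 5, against 22.0 and 37.3 CPM in WT (log2 fold change 0.42, SE 0.326, edgeR, adjusted p = 0.395), and its groups overlapped. Another such gene, nad5, had 18.0 and 20.5 CPM in line 5, against 17.8 and 29.5 CPM in WT (-0.29, SE 0.254, adjusted p = 0.448). The matrix-arm gene nad7 had 16.6 and 18.0 CPM in line 5, against 17.9 and 21.1 CPM in WT (-0.17, SE 0.132, adjusted p = 0.397), and was positive, at 0.072, when scaled by library totals. The low-count gene nad3 had 36 and 28 counts in line 5, against 20 and 34 counts in WT. For nad5, nad7 and nad3, too, the libraries of the groups overlapped, and 0 of the 7 complex I genes passed the test. The genes nad1 and nad2 were not analysed here.

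The ribosomal protein genes showed no common direction. Of the 7, 5 passed the filter, 0 were called and their median log2 fold change was 0.12. The small-subunit gene rps4 had 14.1 and 13.8 CPM in line 5, against 15.4 and 9.20 CPM in WT (log2 fold change 0.18, SE 0.251, edgeR, adjusted p = 0.635). The gene rps3 had 3.70 and 3.25 CPM in line 5, against 5.22 and 3.05 CPM in WT (-0.26, SE 0.293, adjusted p = 0.560). In both genes WT replicate 2 was the lower of the WT libraries, the opposite of the genes of complexes III and IV and the ATP synthase, and the line 5 values lay between the WT values. The large-subunit gene rpl16 had 2.55 and 2.45 CPM in line 5, against 3.28 and 2.64 CPM in WT (-0.24, SE 0.206, adjusted p = 0.435), with both line 5 libraries lower by less than the gap within WT. The genes rps12 and rpl5 had 0.616 to 0.841 CPM and 0.352 to 0.374 CPM in line 5, against 0.599 to 0.743 CPM and 0.212 to 0.454 CPM in WT, and overlapped.

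The genes rps7, rpl2 and ccmB failed the filter on low counts and are given by their counts. The gene rps7 had 2 and 2 counts in line 5, against 4 and 10 counts in WT, a scaled ratio of WT over line 5 of 5.87 (95% exact binomial counting interval 1.84 to 24.5). That ratio was 3.11 without WT replicate 2 and 9.11 without WT replicate 1. Intervals of this kind cover counting error only. The ratio of WT over line 5 was 1.31 (0.601 to 2.78) for rpl2, with 8 and 10 counts in line 5, against 11 and 3 in WT. For ccmB, with 6 and 3 counts in line 5, against 9 and 2 in WT, it was 2.05 (0.773 to 5.60). Both intervals include 1, and both ratios turned to the other side of 1 without WT replicate 1 (0.607 and 0.809).

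The genes for cytochrome c maturation act in handling heme and joining it to the apoprotein. Of the 5, 4 passed the filter, 0 were called and their median log2 fold change was -0.18. The level of ccmFN2 was 1.87 and 1.96 CPM in line 5, against 2.79 and 2.27 CPM in WT (log2 fold change -0.40, SE 0.216, edgeR, adjusted p = 0.243). For ccmFC it was 1.43 and 1.68 CPM in line 5, against 1.41 and 1.61 CPM in WT (0.05, SE 0.243, adjusted p = 0.910). The ccmFN2 libraries did not overlap between groups, with line 5 the lower, and those of ccmFC did. The gene ccmFN1 had 15 and 25 counts in line 5, against 17 and 20 counts in WT, and was lower in both line 5 libraries once scaled to CPM (-0.63, SE 0.445, adjusted p = 0.355). The gene ccmC had 27 and 54 counts in line 5, against 8 and 28 counts in WT (0.40, SE 0.721, adjusted p = 0.720); it was the only tested gene whose line 5 libraries differed by at least 2-fold.

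The transporter gene mttB, related to the bacterial twin-arginine translocase gene tatC, had 41.3 and 46.1 CPM in line 5, against 39.8 and 67.1 CPM in WT (log2 fold change -0.29, SE 0.258, edgeR, adjusted p = 0.458). The gene matR, for a maturase related to proteins that assist group II intron splicing, had 4.22 and 3.50 CPM in line 5, against 4.55 and 3.92 CPM in WT (-0.13, SE 0.194, adjusted p = 0.649). The groups overlapped in both genes. Per gene length, in the FPKM values the authors deposited, nad6 also stood first, at 356 and 359 FPKM in line 5, against 296 and 211 FPKM in WT. The gene mttB was next among the mitochondria-encoded rows, at 50.7 and 57.8 FPKM in line 5, against 43.3 and 68.2 FPKM in WT. In this ranking atp9 counts as 0. Its chromosome 2 copy AT2G07671 had 110 and 140 FPKM in line 5, against 125 and 158 FPKM in WT, above mttB in each library. Whether the rank of mttB depends on how reads of atp9 were assigned was not tested. On the same scale atp1 had 6.69 and 7.69 FPKM in line 5, against 16.7 and 51.3 FPKM in WT, and was below nad7 in both line 5 libraries and above it in both WT libraries.

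Summed by function, the genes of complexes III and IV and the ATP synthase had 49.6 and 57.3 CPM in line 5, against 89.8 and 283 CPM in WT. The planned classes did not include this pool. It joins the classes whose tested genes were all lower in both line 5 libraries than in both WT libraries. The sum therefore restates the values of those genes and is no separate evidence. The line 5 mean of this pool was 53.4 ± 5.45 CPM (SD, n = 2). That was 0.595 times the level of WT replicate 1 and 0.189 times that of WT replicate 2, so a lower level held against each WT library and its size did not. In this sum atp9 counts as 0 and chromosome 2 copies are left out. Of these copies, AT2G07671 (ATP synthase subunit C) had 29.6 and 37.0 CPM in line 5, against 37.9 and 51.7 CPM in WT. AT2G07718 (cytochrome b) had 16.4 and 19.5 CPM in line 5, against 15.4 and 31.4 CPM in WT. A pooled sum with the copies added was not made. All 9 tested genes of the pool were lower in both line 5 libraries than in both WT libraries, which the choice of classes fixed. The 33.4% of all genes tested that lay this way is therefore no yardstick for that count. Of the 9 genes, 1 passed the test. Their median log2 fold change was -1.86. The ribosomal genes together had 21.5 and 21.0 CPM in line 5, against 25.2 and 16.6 CPM in WT, and the cytochrome c maturation genes 4.36 and 5.56 CPM in line 5, against 5.39 and 5.94 CPM in WT. All 7 complex I genes together had 285 and 305 CPM in line 5, against 267 and 259 CPM in WT, with both line 5 libraries above both WT libraries. Most of those counts were on nad6. Without nad6, a split made after its values were seen, complex I had 70.1 and 91.8 CPM in line 5, against 64.9 and 105 CPM in WT. The sums of the ribosomal genes, of the cytochrome c maturation genes and of complex I without nad6 differed between groups by less than the gap within WT or within line 5.

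A comparison within each library does not depend on library scaling. Counts on complexes III and IV and the ATP synthase were 2.30 and 2.73 times those on the ribosomal genes in line 5, against 3.56 and 17.0 times in WT (two-sided exact permutation test, p = 0.33, which no split of 2 against 2 libraries can go below). Set against complex I without nad6, left out after its values were seen, the same counts were 0.708 and 0.624 times as many in line 5, against 1.38 and 2.68 times in WT (two-sided exact permutation test, p = 0.33). The 2 line 5 libraries were lower than both WT libraries in each ratio. The pooled classes are those whose tested genes were all lower in both line 5 libraries, so both ratios restate that choice. In them atp9 counts as 0, and counts assigned to chromosome 2 copies are left out. Complex I without nad6 over the ribosomal genes was 3.26 and 4.37 in line 5, against 2.57 and 6.33 in WT (two-sided exact permutation test, p = 1), and overlapped. These 3 ratios were the ones computed between functions, and 0 of the 3 can reach 0.05 at this number of libraries.

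Of the mitochondria-encoded footprints, the ATP synthase, complex IV and nad6 took similar shares in the line 5 libraries and unlike shares in the WT libraries. The ATP synthase took 5.99% and 6.35% of these footprints in line 5, against 11.8% and 24.1% in WT. Complex IV took 5.50% and 5.98% in line 5, against 7.85% and 17.6% in WT. The gene nad6 alone took 53.0% and 48.6% in line 5, against 46.8% and 24.2% in WT. WT replicate 1 lay between the line 5 libraries and WT replicate 2 in all of these shares. Other parts differed. Complex I without nad6 took 17.3% and 21.0% in line 5, against 15.0% and 16.6% in WT, so here the line 5 pair differed more. The maturase and transporter genes took 11.2% and 11.3% in line 5, against 10.3% and 11.2% in WT. In all shares atp9 counts as 0, and counts assigned to chromosome 2 copies are left out. The summed share of all library counts was 0.0437% and 0.0481% in line 5, against 0.0411% and 0.0565% in WT (two-sided exact permutation test, p = 1), and without nad6 it was 0.0205% and 0.0247% in line 5, against 0.0219% and 0.0428% in WT (exact permutation test, p = 0.667).

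**Figure D2:**
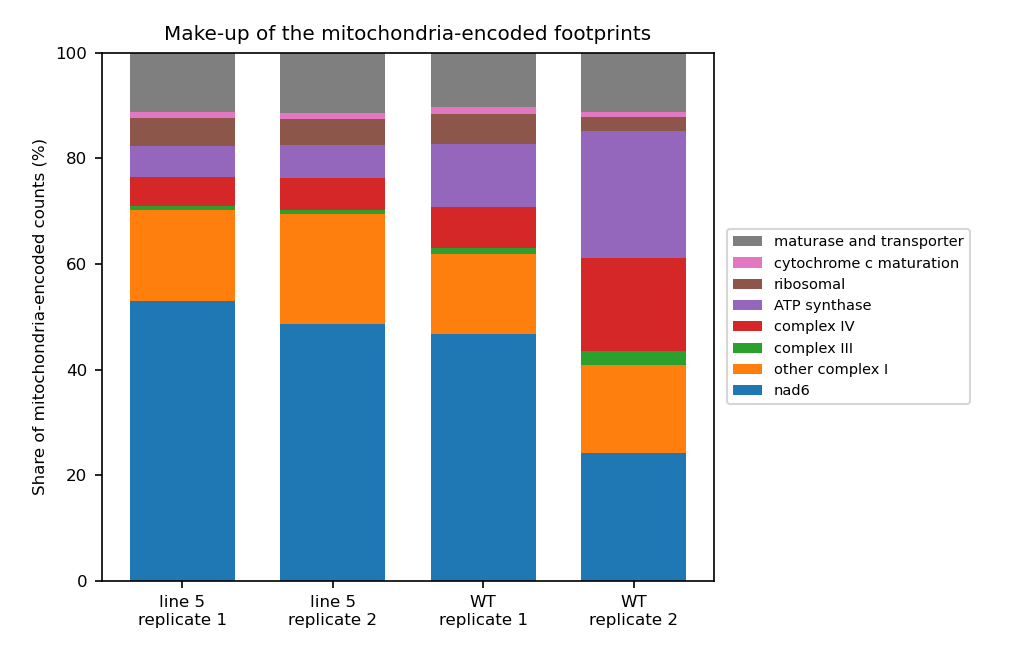
Share of the mitochondria-encoded counts (%, vertical axis) taken by nad6 and by each functional class in the 2 line 5 and the 2 WT libraries, as stacked bars that add up to 100%. The nad6 segment covers 53.0% and 48.6% in line 5, against 46.8% and 24.2% in WT, and the ATP synthase and complex IV segments are widest in WT replicate 2.

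The gap between the WT libraries was wider for mitochondria-encoded genes than for most others. Of the 27 tested, 10 differed by at least 2-fold between the WT libraries on the log2 CPM scale with a prior count added, all of them higher in WT replicate 2, against 5.80% of all genes tested. Against WT replicate 1 alone, the 9 genes of complexes III and IV and the ATP synthase had log2 ratios (line 5 mean over that library) from -1.40 for atp1 to -0.29 for atp4. Against WT replicate 2 alone they ran from -3.44 for atp6-1 to -1.12 for cox2. With WT replicate 1 left out, where only the line 5 pair gives a spread, edgeR called 13 of 28 tested mitochondria-encoded genes lower, against 15.1% of all genes in that fit, and 2 (nad6 and rps4) higher, against 11.4%. With WT replicate 2 left out it called 2 of 29 lower, atp1 and atp6-2, against 10.2% of all genes, and 0 higher, against 7.24%. Without replicate 1 or 2 of line 5 it called 0 lower, where all genes gave 0.074% and 0.0159%, and 0 higher, where they gave 0.196% and 0.133%. Plastid-encoded counts were also highest in WT replicate 2, and their part in these results was not tested.

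**Figure D3:**
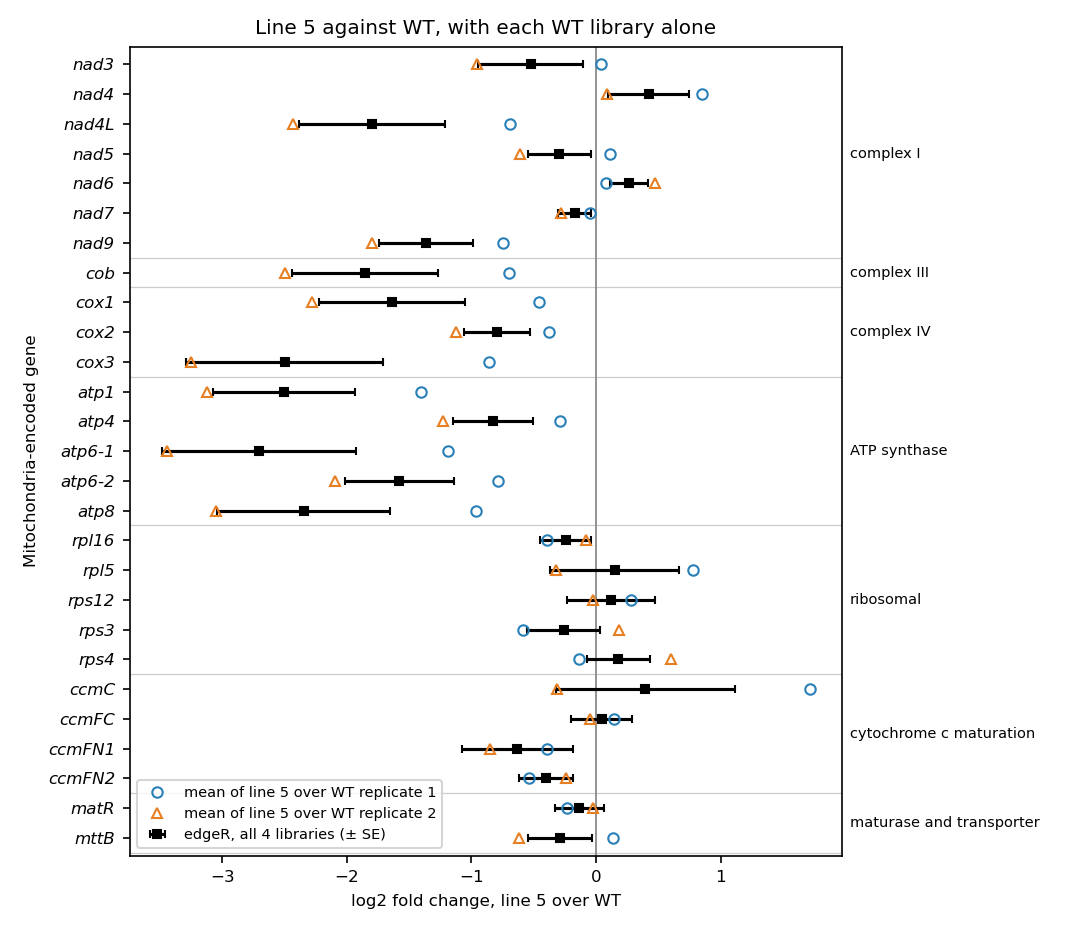
Log2 fold change of line 5 over WT (horizontal axis) for the 27 tested genes: black squares with bars are the edgeR estimate over all 4 libraries ± SE, and open symbols are the mean of the line 5 libraries over a single WT library. For the 9 genes of complexes III and IV and the ATP synthase, and for nad4L and nad9, both open symbols lie below 0, with the triangle of WT replicate 2 farther out. The same order is seen for nad7 and ccmFN1.

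Chromosome 2 of Arabidopsis carries a large insertion of mitochondrial DNA, and the deposited table lists genes there under identifiers starting with AT2G07. For 10 of the 31 mitochondria-encoded genes, the count in every library was identical to that of such a gene: cob, cox3, atp6-1, atp8, nad3, rps4, rps7, rps12, rpl5 and ccmC. For cox3, both ATMG00730 and AT2G07687 are listed with 88 and 114 counts in line 5 and 118 and 532 counts in WT. Reads of these pairs cannot be assigned to a genome, and whether each read was divided or counted for both was not tested. A fold change is the same for each member of such a pair. The 21 genes without an identical count include 5 of the 9 tested genes of complexes III and IV and the ATP synthase: cox1, cox2, atp1, atp4 and atp6-2.

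For atp1, the chromosome 2 gene with the matching annotation, AT2G07698, had its own counts. Its level was 3.65 and 3.90 CPM in line 5, against 3.45 and 4.04 CPM in WT (log2 fold change 0.01, SE 0.181, edgeR, adjusted p = 0.970), so the groups overlapped. Added to the atp1 counts, it left a log2 fold change of -2.14 (SE 0.528), and atp1 was no longer called (adjusted p = 0.0548). AT2G07695, annotated as similar to cytochrome c oxidase subunit II, had 3.70 and 4.90 CPM in line 5, against 3.98 and 6.56 CPM in WT. AT2G07718, annotated as cytochrome b, had 16.4 and 19.5 CPM in line 5, against 15.4 and 31.4 CPM in WT. Neither was called. With its chromosome 2 copies added, the log2 fold change of cob was -0.93 (SE 0.443, edgeR, adjusted p = 0.20), against -1.86 for the cob row alone. With these copies counted, line 5 replicate 2 was above WT replicate 1, so the groups overlapped. The lower level of cob in both line 5 libraries thus held for its own row only.

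The authors' deposited table lists 7 of the 31 genes with an FDR under 0.05, a threshold chosen here, against 7.5% of all its genes that are lower, and 0 higher, against 5.15%. These 7 were atp1, atp6-1, atp6-2, atp8, cob, nad4L and nad9. The authors' deposited table gives atp1 a log2 fold change of -2.24 (FDR 0.0164) and atp6-1 one of -2.45 (FDR 0.000703). With edgeR these were -2.50 and -2.70 by TMM scaling, and -2.24 and -2.44 by library totals. The deposited fold changes are thus on a scale nearer that of library totals. It gives cox3 -2.24 (FDR 0.107) and cox1 -1.37 (FDR 0.197), which are not among the 7. The DESeq2 run on the counts called 7 genes, by name atp1, atp6-1, atp6-2, atp8, cob, nad4L and nad9.

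No nucleus-encoded partner gene on the list used here was called lower in line 5. That list is a selection, made with earlier results of these data known. Of 57 nuclear genes listed for the respiratory chain, the ATP synthase, cytochrome c maturation and mitochondrial gene expression, 57 were tested and 8 were called higher, where 6.72% of all genes were. The count called lower was 0 by edgeR, where 8.72% of all genes were, 0 at an unadjusted p under 0.05, where 18.7% were, and 0 by DESeq2, where 12.2% were. Among the 40 subunits of complexes I to IV, cytochrome c and the ATP synthase, the median log2 fold change was 0.04, and 2 were higher. The 7 nuclear ATP synthase genes had log2 fold changes from -0.14 to 0.09, and the 13 of complex I from -0.15 to 0.30. Among the nuclear partner genes, the 2 WT libraries differed by at most 1.77-fold where replicate 2 was higher. The 2 subunits called higher were AT5G25450 and AT3G15640. AT5G25450, annotated as a small subunit of ubiquinol oxidase and listed under complex III, had 38.1 and 31.4 CPM in line 5, against 3.35 and 3.59 CPM in WT, and rose 10.0-fold (log2 fold change 3.32, SE 0.158, edgeR, adjusted p = 0.00342). AT3G15640, listed under complex IV, had 78.7 and 75.1 CPM in line 5, against 58.1 and 54.8 CPM in WT, and rose 1.36-fold (adjusted p = 0.0434).

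**Figure D4:**
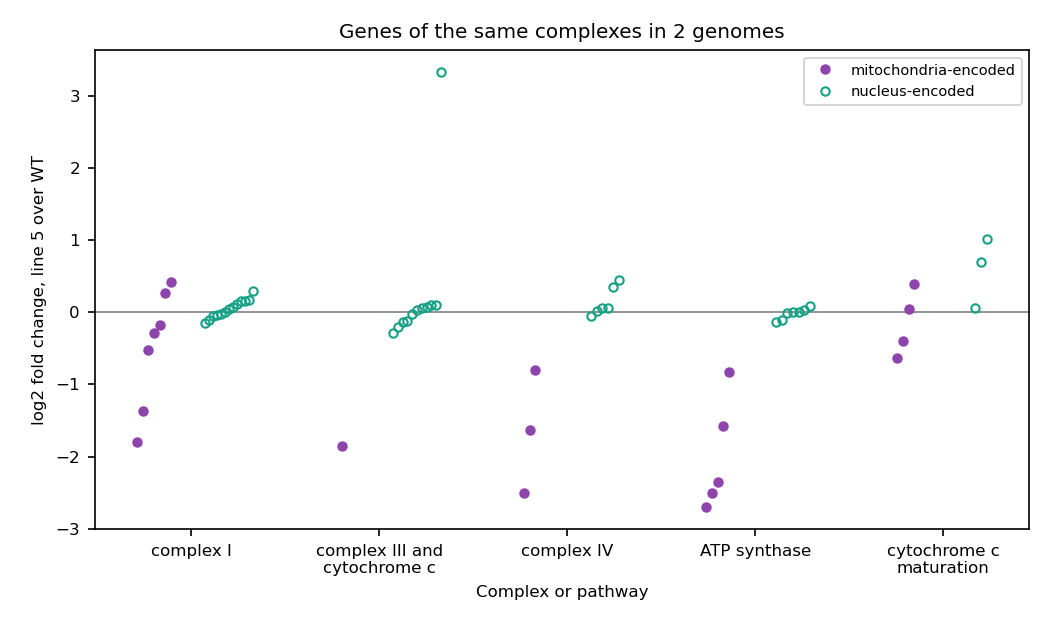
Log2 fold change of line 5 over WT (vertical axis) for tested mitochondria-encoded genes (filled) and nucleus-encoded genes (open) of the same complex or pathway (horizontal axis), with 1 point per gene. The nuclear ATP synthase genes lie between -0.14 and 0.09, the 5 mitochondria-encoded ones between -2.70 and -0.83, and the open point at 3.32 is AT5G25450.

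Of the 8 nuclear genes that rose, 6 were listed for mitochondrial gene expression. That list has 14 genes, of which 6 rose, where 6.72% of all genes were called higher, and 0 fell, where 8.72% were called lower. Its median log2 fold change was 0.67, against 0.0023 over all genes tested, and no test of the list was made. The list is a selection of such genes, made with earlier results of these data known. Its share of called genes is therefore no measure of mitochondrial gene expression as a whole. BIR6, a pentatricopeptide repeat protein of the family that binds organelle transcripts, had 7.79 and 8.48 CPM in line 5, against 3.70 and 2.85 CPM in WT (log2 fold change 1.31, SE 0.190, edgeR, adjusted p = 0.0230). PMH1, a mitochondrial RNA helicase, had 31.0 and 32.2 CPM in line 5, against 15.8 and 14.8 CPM in WT (1.05, SE 0.108, adjusted p = 0.0148). Its relative PMH2 rose 1.47-fold (adjusted p = 0.0353), and neither gene's groups overlapped. AT5G15700, annotated in the superfamily of DNA and RNA polymerases, rose 2.44-fold (adjusted p = 0.0288). The intron maturase gene AT5G46920 rose 1.88-fold and the polyribonucleotide nucleotidyltransferase gene AT5G14580 1.87-fold. Fits with a line 5 library left out kept few of the calls among the 57 nuclear genes. They also kept few of the calls over all genes, so the loss was not particular to this list.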

How the data were processed

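Ribosome footprints were counted in 2 line 5 and 2 WT seedling libraries. Per the file headers, each deposited gene row holds whole-number counts and FPKM values for every library. It also holds the authors' mean FPKM and log2 fold change, with the p-value and FDR of their comparison. Per the submitters' processing notes, fastp, Bowtie2, STAR, RSEM and DESeq2 were used with build TAIR10; versions, roles, strand setting and the authors' test are unstated in those sources. Counts are whole numbers, possibly rounded RSEM estimates. A further 5 rows without an identifier (0.0145% to 0.0340% of counts) were left out.

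The test on counts was that of edgeR 4.0.16 in R 4.3.3: filterByExpr with minimum count 10, TMM, a quasi-likelihood fit on group, two-sided, Benjamini-Hochberg adjustment over 18737 genes, threshold 0.05. The SE is the log2 fold change over the square root of F. DESeq2 1.42.0 and other scalings, filters and left-out libraries were alternatives. The script was tested on simulated data. Both replicate pairs exceeded sampling noise, with a chi-square statistic of 25.7 (line 5) and 39.0 (WT) for each degree of freedom. A floor of 3 counts is 0.0660 to 0.124 CPM. Every mitochondria-encoded gene was accounted for. Up to 8 nuclear partners with the smallest p were named. Chromosome 2 genes were matched by description, that of ccmC also by its identical counts. In RefSeq's TAIR10.1 table all 31 genes were found by symbol, 0 by identifier, and all 57 partners by identifier. Members and lists were chosen with earlier results of these data known.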

Additional observations from a re-analysis of the deposited data

How the results depend on the processing

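The count of mitochondria-encoded genes called lower (1) became 7 with DESeq2, 5 with no filter, and 0 with the stricter filter (mean count at least 50), with the replicate number as a block and with chromosome 2 copies added; leaving out a library gave 0 to 13 lower and 0 to 2 higher, against 0. Nuclear partners called higher (8) became 17 by library totals and 2 with the replicate block, and 1 to 11 with a library left out. Library totals moved the median of all genes by 0.24 (log2), and 73.2% of calls were then higher, against 43.6%. Over all genes 3355 were then called higher, against 1260 in the main fit, so more higher calls were not particular to the partner list. For the other filters, the replicate block and the added copies, the share of all genes called is not given here. The counts under those settings therefore have no yardstick. The numbers of the libraries are not stated to mark a shared batch; the correlation of same-numbered deviations was -0.12, so the block is no paired test. For atp1 the block gave an adjusted p of 0.0602 and the stricter filter 0.0502. Of 319 alternative member fold changes, 19 changed sign, 0 of them past the threshold. Scaled to the summed members, the log2 fold change was 0.023 for rpl16, 0.14 for nad7, 0.057 for nad5, 0.14 for matR and 0.065 for mttB, and by library totals 0.072 for nad7 and 0.10 for matR. Leaving out a library gave ranges of -0.58 to 0.18 for rps3, -0.073 to 0.16 for ccmFC, -0.32 to 0.77 for rpl5, -0.14 to 0.60 for rps4, -0.61 to 0.11 for nad5, -0.62 to 0.14 for mttB, -0.32 to 1.70 for ccmC, -0.12 to 0.33 for rps12 and -0.95 to 0.040 for nad3. Beyond the construction of each alternative, the cause was not tested. The difference in the summed share (-0.0029 percentage points) was 0.0048 without WT replicate 2. Without nad6, or without the genes with identical counts, both chosen after seeing the data, it was -0.0097 and -0.00062.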

Other observations

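Chromosome 2 genes with identifiers starting with AT2G076 or AT2G077 whose annotation names no single mitochondria-encoded gene also carried footprints. AT2G07655, annotated as uncharacterized, had 152 and 161 CPM in line 5, against 140 and 176 CPM in WT, and the groups overlapped (log2 fold change -0.01, SE 0.141, edgeR, adjusted p = 0.955). AT2G07641 had 30.9 and 31.5 CPM in line 5, against 44.3 and 41.1 CPM in WT, and fell by 0.45 on the log2 scale (SE 0.102, edgeR, adjusted p = 0.0459). AT2G07715, annotated as a nucleic acid-binding protein, had 0.968 and 1.17 CPM in line 5, against 2.36 and 2.64 CPM in WT, and fell by 1.23 on the log2 scale (SE 0.237, edgeR, adjusted p = 0.0351). Of the 10 such genes with a mean of at least 1 CPM, these 2 were called, both lower, where 8.72% of all genes tested were. The 10 include AT2G07690, annotated in the minichromosome maintenance family, and AT2G07680, annotated as a multidrug resistance-associated protein. AT2G07785, annotated as an NADH dehydrogenase family protein, had 0.374 and 0.374 CPM in line 5, against 0.635 and 3.63 CPM in WT (log2 fold change -2.48, SE 0.858, edgeR, adjusted p = 0.109). AT2G07689, annotated as a complex I protein, had 0.550 and 0.864 CPM in line 5, against 1.30 and 3.09 CPM in WT (-1.62, SE 0.508, adjusted p = 0.0891). In the last 2 genes both line 5 libraries were lower than both WT libraries, with WT replicate 2 highest, and neither passed the test. Both line 5 libraries were also lower for AT2G07629, AT2G07641, AT2G07674, AT2G07690 and AT2G07715. They were not for AT2G07655, AT2G07680 and AT2G07776. Of all genes tested, 33.4% had both line 5 libraries below both WT libraries.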
